A study of Mus musculus with 14 samples.

Results

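Hmox1, Gpx3, Srxn1, Gstm2, Xdh and Msrb1 are 6 genes of redox enzymes, and they were taken by name wherever the RNA-seq values hold them. The values cover 1573 genes, 1043 in a comparison of old with young hematopoietic stem cells (HSCs) and 583 in a comparison of Clu knockout with control old HSCs, with 53 genes in both. Hmox1, Gpx3, Srxn1, Gstm2 and Xdh were found in the first table, Msrb1 in the second, and 0 of the 6 in both. The 14 libraries are bulk RNA-seq of mouse donor HSCs collected from the bone marrow of irradiated recipients 4 months after transplantation. For age, 4 libraries came from transplanted old HSCs (oHSCs, labelled o_Tx) and 3 from transplanted young HSCs (yHSCs, y_Tx), and the labels name no treatment for either. The methods list C57BL/6J and Rosa26-Cas9 mice of 2 months, C57BL/6J mice over 18 months and Rosa26-Cas9 mice of 24 months, and do not tie a strain or age to the o_Tx and y_Tx libraries. The labels call all cells hematopoietic stem and progenitor cells, and the study describes them as sorted HSCs. For Clu, oHSCs of 24-month-old Rosa26-Cas9 knock-in mice received lentivirus with mCherry and either guides against Clu (o_sgClu, 4 libraries) or the control (o_sgCtrl, 3 libraries), so both groups are old, carry Cas9 and were infected, sorted and transplanted. A knockout by pooled lentiviral guides leaves a mixture of edited alleles, and the number of animals behind a library is not given in the sources used here, so p-values measure the spread between libraries.

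HSCs keep reactive oxygen species low, and these oxidants are known to push them out of quiescence. Hydrogen peroxide is removed by glutathione peroxidases and peroxiredoxins, oxidized methionine is repaired by methionine sulfoxide reductases, and glutathione S-transferases attach glutathione to electrophiles. Many such genes are induced by the transcription factor Nrf2 (gene Nfe2l2) and held down by Bach1 through antioxidant response elements, which small Maf proteins such as Mafk also bind. Among the 6 genes, Gpx3 encodes a secreted glutathione peroxidase, Srxn1 a sulfiredoxin that reactivates overoxidized peroxiredoxins, Hmox1 the inducible haem oxygenase, Gstm2 a mu-class glutathione S-transferase and Msrb1 a methionine sulfoxide reductase. Gpx3 and Msrb1 proteins carry selenocysteine. Xdh differs from these, since xanthine dehydrogenase of purine breakdown can be converted to an oxidase that makes superoxide and hydrogen peroxide.

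The perturbation behind the Msrb1 values is the set of 3 guides that the study's table gives for Clu, which the methods describe as pooled for single-gene knockouts. They match exons 3, 4 and 5 of the 9 exons of an annotated Clu transcript (GENCODE M21, GRCm38), at chr14:65973360-65973379, chr14:65974896-65974915 and chr14:65975875-65975894. The first and second read along the transcript and the third against it.
Clu guide 1: gagattcagaacgccgtcca
Clu guide 2: agtgtgtaacgagaccatga
Clu guide 3: aacatgttgtggaagctcgg

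Promoter sequence shows a difference among Srxn1, Gstm2 and Gpx3, the genes that rose with age and had a promoter at hand. The Srxn1 and Gstm2 promoters are printed for it, and Hmox1 and Xdh could not be compared. RefSeq promoters (GRCm38.p6, 250 bases before to 50 bases after the start) were matched for 4 of the 6 genes, Srxn1, Gstm2, Gpx3 and Msrb1. They were searched on both strands for TGACNNNGC, the core of the antioxidant response element, and for TGAGTCA, the AP-1 site, which was added after the data were seen. Capitals mark the matches, which do not overlap each other. Srxn1 (chr2:152105274-152105573, plus strand) held TGAGTCA at 102 and 45 bases upstream of the start and 1 match of TGACNNNGC, on the opposite strand, at 28 bases downstream. Gstm2 (chr3:107986371-107986670, minus strand), Gpx3 and Msrb1 had 0 matches of either. Of 32851 promoters of this length, 12.4% held TGACNNNGC and 5.20% held TGAGTCA, and a match is a description of letters only.
Srxn1 promoter: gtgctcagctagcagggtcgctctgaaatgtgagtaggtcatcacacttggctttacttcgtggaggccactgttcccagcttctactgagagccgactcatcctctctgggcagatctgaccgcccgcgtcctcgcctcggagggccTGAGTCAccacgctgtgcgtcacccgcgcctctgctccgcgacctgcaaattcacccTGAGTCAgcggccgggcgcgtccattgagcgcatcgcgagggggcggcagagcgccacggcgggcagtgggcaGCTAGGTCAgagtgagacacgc
Gstm2 promoter: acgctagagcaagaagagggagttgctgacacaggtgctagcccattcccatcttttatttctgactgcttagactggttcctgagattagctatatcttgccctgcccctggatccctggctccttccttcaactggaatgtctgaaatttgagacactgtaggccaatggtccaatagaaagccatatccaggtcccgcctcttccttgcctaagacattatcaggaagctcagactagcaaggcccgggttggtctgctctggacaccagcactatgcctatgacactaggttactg

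Values are taken as FPKM (fragments scaled to transcript length and to the mapped fragments of the library), although the headers name no unit. The study describes the genes of the age table as called higher in oHSCs on the same libraries. How genes entered the Clu table is not given in the sources used here, and 2 of them, Gm12031 and Gm17657, are listed at 0 in all 7 libraries. By the study's description, a difference and its direction were thus a condition of entry for age, while for Clu the selection is unknown. The p-values describe selected genes. Some age genes were nevertheless lower on the values used here (0.959% by the limits below), and the reason was not tested. A gene counts as higher or lower here when limma on log2(FPKM + 1), two-sided, gives an unadjusted p under 0.05 and an absolute log2 fold change over 0.5, the limits in the study's methods. Adjusted p-values are Benjamini-Hochberg values over all genes of the table. Because of the added 1, changes of genes near or under 1 FPKM come out too small. Library depth is unknown. Of the age table, 62.5% of genes were higher and 0.959% lower in oHSCs by these limits, 37.3% were higher at adjusted p-values, and in 49.7% every oHSC library lay above every yHSC library. The median log2 fold change of the 1043 genes was 0.70, and rescaling the libraries by the median of ratios over the listed genes, which removes a one-sided change by construction, brought it to 0.069 and the calls from 652 higher and 10 lower to 124 and 54. Of 16 HSC markers, the age table holds Slamf1, Procr, Vwf and Esam, and their summed level was 24.4 to 33.4 FPKM in oHSC and 10.7 to 19.1 FPKM in yHSC libraries. The other 12, Kit and Ly6a among them, are not among the values. As being higher in oHSCs was a condition of entry, the sums of these 4 cannot check the label of either group.

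All 5 genes of the age table were higher in oHSCs than in yHSCs and past both limits, against 62.5% of all genes, and 4 of them at adjusted p-values, against 37.3%. In 4 of the 5 the groups did not overlap, against 49.7%. Their log2 fold changes ran from 0.93 to 2.20 with a median of 0.997. In order of FPKM in oHSCs, Gstm2 was the most abundant, followed by Xdh, Srxn1, Gpx3 and Hmox1. The ranges of Gstm2, Xdh and Srxn1 did not overlap in oHSCs, while that of Gpx3 overlapped those of Xdh, Srxn1 and Hmox1. The plot of FPKM by library shows these levels.

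**Figure D1:**
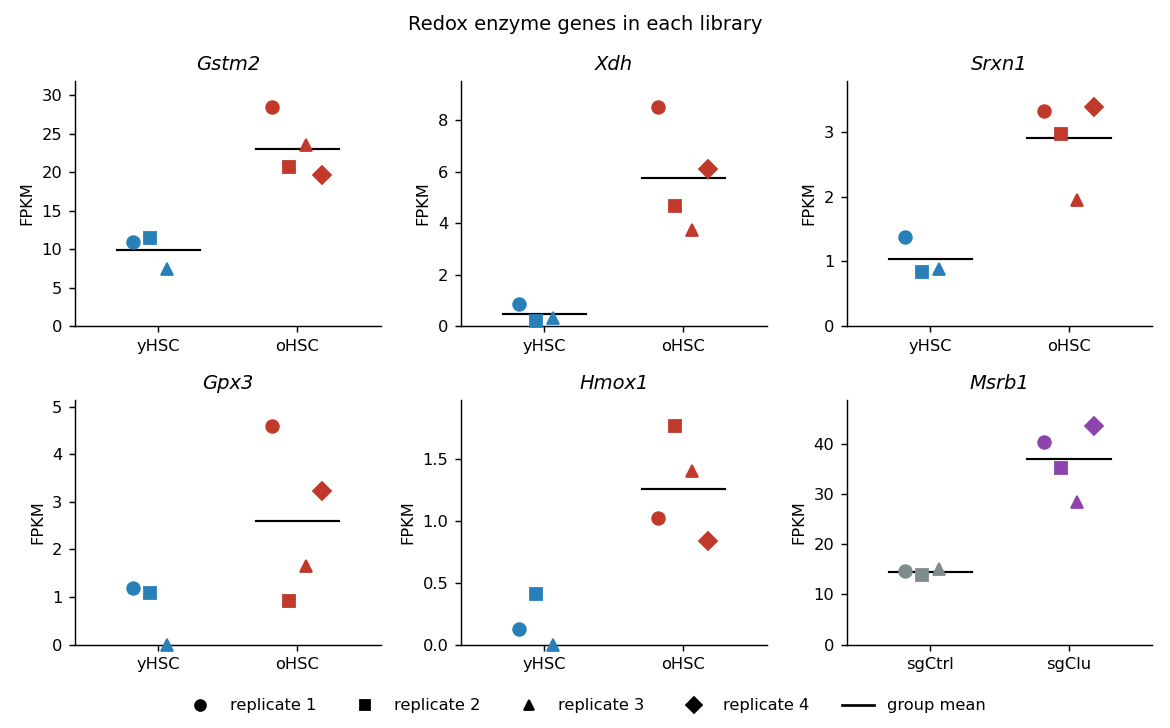
FPKM of the 6 genes in each library (y axis, linear from 0), with 1 point per library, a marker shape per replicate number and a bar at the group mean, left out where a library is listed at 0. The oHSC libraries lie above the yHSC libraries in Gstm2, Xdh, Srxn1 and Hmox1 and overlap them in Gpx3, and sgClu libraries lie above sgCtrl libraries in Msrb1.

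Xdh changed most. This gene lies on chromosome 17 (GRCm38, 73883895 to 73950196, minus strand), and its longest annotated transcript has 36 exons. It measured 8.50, 4.68, 3.75 and 6.11 FPKM across the 4 oHSC libraries, against 0.845, 0.193 and 0.310 FPKM across the 3 of yHSCs. The groups were far from overlapping, with oHSC replicate 1 the highest and yHSC replicate 2 the lowest. Mean values were 5.76 ± 2.07 FPKM (SD, n = 4) and 0.449 ± 0.348 FPKM (SD, n = 3), a 12.8-fold ratio. On the log2(FPKM + 1) scale the change was 2.20 (SE 0.28, limma adjusted p = 0.000744), which placed Xdh 15th of the 1043 genes. Of the 50-base words of its transcript, 8.59% occur in other genes. Xdh was past the limits under every alternative tried, with log2 fold changes from 1.76 after median-of-ratios scaling to 3.53 with a pseudocount of 0.1.

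Srxn1 and Gpx3, both listed under peroxide removal, had lower mean FPKM than Xdh in oHSCs. In yHSCs both had higher means, 1.03 and 0.758 FPKM against 0.449 FPKM for Xdh. Srxn1, on chromosome 2 (152105516 to 152111376, plus strand), measured 3.32, 2.97, 1.94 and 3.38 FPKM in oHSCs and 1.38, 0.839 and 0.883 FPKM in yHSCs. Every oHSC library was above every yHSC library, with oHSC replicate 3 the lowest of its group. The means were 2.91 ± 0.668 FPKM (SD, n = 4) and 1.03 ± 0.298 FPKM (SD, n = 3). The difference of 0.93 on the log2 scale (SE 0.23, adjusted p = 0.0165 in limma) went to 0.43, not past the limits, after median-of-ratios scaling.

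Gpx3, on chromosome 11 (54902453 to 54910377, plus strand), measured 4.60, 0.922, 1.65 and 3.22 FPKM in oHSCs. In yHSCs it was at 1.19 and 1.08 FPKM and listed at 0 in replicate 3. Its groups overlapped, since oHSC replicate 2 lay below yHSC replicates 1 and 2, and relative to their mean the oHSC libraries differed more than for any of the other 4 genes. The change was 0.997 on the log2 scale (SE 0.40) and past both limits, while the adjusted p from limma, 0.0626, missed 0.05. Gpx3 was not past the limits without yHSC replicate 3 (0.63), without oHSC replicate 1 (0.75) or without oHSC replicate 4 (0.88), nor after either rescaling (0.66 and 0.70) or with a pseudocount of 0.1 (2.104). With no variance shared between genes the change was the same 0.997 and not past the limits.

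Hmox1 was the least abundant of the 5. It lies on chromosome 8 (75093621 to 75100589, plus strand) and measured 1.02, 1.77, 1.40 and 0.835 FPKM in oHSCs, against 0.129 and 0.409 FPKM in yHSC replicates 1 and 2 and a listed 0 in replicate 3. The groups did not overlap, with oHSC replicates 2 and 3 the highest. The log2 difference was 0.93 (SE 0.23, adjusted p = 0.0172 in limma), with 0.69 after median-of-ratios scaling and 2.53 with a pseudocount of 0.1, past the limits in both. The yHSC library listed at 0 for Hmox1 and Gpx3 had the most genes at 0, 96 of 1043, against 73 and 77 in the other yHSC libraries and 5 to 12 in oHSCs. Without that library the change of Hmox1 was 0.82 and still past the limits.

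Gstm2 had the narrowest relative spread. On chromosome 3 (107981702 to 107986453, minus strand), it measured 28.4, 20.7, 23.5 and 19.6 FPKM in oHSCs and 11.0, 11.4 and 7.46 FPKM in yHSCs. All oHSC libraries were above all yHSC libraries. The means of 23.0 ± 3.96 FPKM (SD, n = 4) and 9.94 ± 2.16 FPKM (SD, n = 3) differed by 1.14 on the log2 scale (SE 0.24, adjusted p = 0.00992 in limma). Median-of-ratios scaling brought it to 0.37, not past the limits. Of the 50-base words of its longest transcript, 9.36% occur in transcripts of other genes, 5.52% in the pseudogene Gm12499, 3.84% in Gm6665 and 1.08% in Gstm1.

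Levels within a library do not depend on how libraries are scaled. The ratio of Xdh to Srxn1 in FPKM was 2.56, 1.57, 1.93 and 1.81 for oHSC replicates 1 to 4 and 0.614, 0.230 and 0.352 for yHSC replicates 1 to 3. Xdh thus stood above Srxn1 in each oHSC library and below it in each yHSC library. Gstm2 was between 2.64% and 3.39% of Gstm1 in oHSCs and between 2.44% and 3.06% in yHSCs, ranges that overlap. Other genes hold 23.1% of the 50-base words of Gstm1, so this ratio is uncertain. Of Gstm5, Gstm2 was between 10.94% and 13.88% in oHSCs and between 8.42% and 10.92% in yHSCs, ranges that nearly meet without overlap. As these ratios were chosen with the values known, they are descriptions.

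Across the 7 age libraries, log2(FPKM + 1) of the 5 genes correlated with each other at Pearson r from 0.501 for Hmox1 and Gpx3 to 0.976 for Srxn1 and Xdh. These r values contain the age difference and the scaling that all genes of a library share. Among 962 genes, those most like Xdh were Gm36161 (r = 0.997), Tfpi (0.987) and Srxn1 (0.976), and those most like Srxn1 were Xdh (0.976), Gm15285 (0.974) and Gm36161 (0.971). For Gstm2 they were Mmrn1 (r = 0.999), Sumo2 (0.987) and Phb (0.983). For Hmox1 they were Fah, Gm4987 and Klrb1c (r = 0.976, 0.975 and 0.975), and for Gpx3 they were Gchfr, Gm45871 and Igsf6 (r = 0.930, 0.930 and 0.922).

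Gstm2 was one of 6 glutathione S-transferase genes in the age table, out of 26 on a list drawn from general knowledge. All 6 were higher in oHSCs, beside 62.5% of all genes, also at adjusted p-values, beside 37.3%, and none overlapped between groups, beside 49.7% of all genes with no overlap. Gstm1, the most abundant, averaged 805.3 ± 184.1 FPKM (SD, n = 4) with old and 362.7 ± 106.3 FPKM (SD, n = 3) with young donors, 1.17 apart on the log2 scale (SE 0.28, adjusted p = 0.0146 in limma). Other genes hold 23.1% of its 50-base words, led by the pseudogene Gstm2-ps1, and its value is uncertain. Gstm4 (1.32), Gstm5 (0.80), the pi-class Gstp3 (1.03) and the theta-class Gstt1 (1.25) were the others, with their log2 fold changes. Without yHSC replicate 3 Gstm4 was at 0.78 and past the limits. Gstm1, Gstm2, Gstm4 and Gstm5 lie close together on chromosome 3, from 107895821 to 108044894. After median-of-ratios scaling Gstt1 alone was past the limits (0.54), and Gstm5 turned to -0.019. The plot of transferase levels shows yHSC replicate 3 as the lowest library in all but Gstp3.

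**Figure D2:**
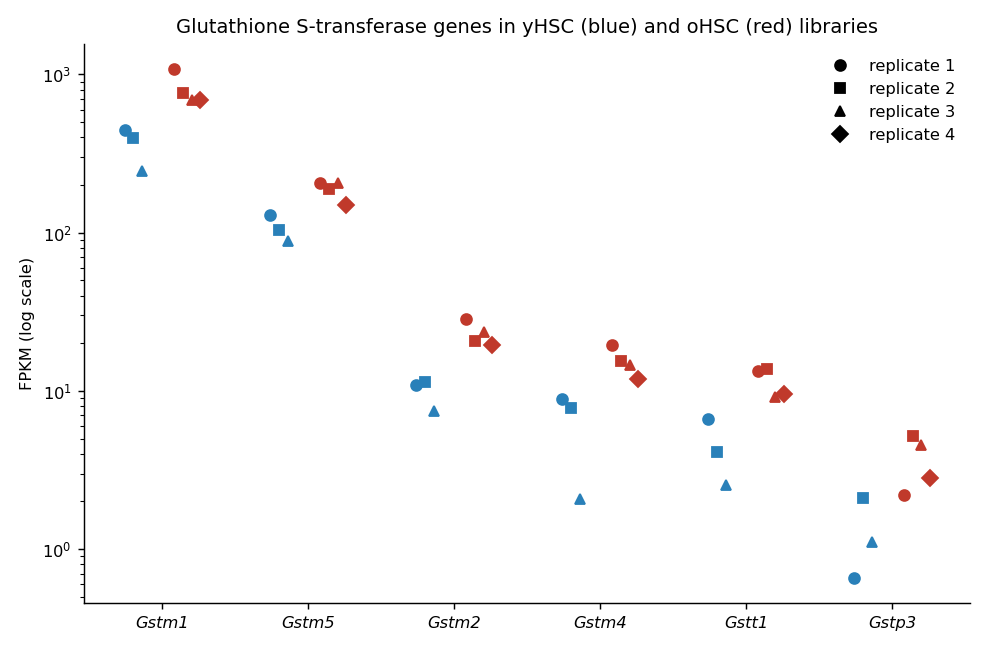
FPKM (log axis) of the 6 glutathione S-transferase genes of the age table, with 1 point per library, yHSCs in blue, oHSCs in red and a marker shape per replicate number. The 4 oHSC points lie above the 3 yHSC points for each gene, from Gstm1, the highest, down to Gstp3.

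Of the whole redox list of 130 genes, 25 were in the age table. By the limits 21 of these 25 were higher and 0 lower in oHSCs, beside 652 and 10 of all 1043, with a median log2 fold change of 0.80 beside 0.70. At adjusted p-values 14 of the 25 were higher, beside 389 of all 1043. Genes of peroxide removal other than the members were represented by Prdx6, a peroxiredoxin, which averaged 453.7 ± 65.2 FPKM (SD, n = 4) with old and 285.5 ± 88.6 FPKM (SD, n = 3) with young donors (log2 fold change 0.71). Mitochondrial thioredoxin Txn2 (0.66) and the methionine sulfoxide reductase Msrb2 (0.65) were past the limits with overlapping groups. The selenium carrier Selenop was at -0.13 and not past the limits, and it was at -0.93 and past them after median-of-ratios scaling.

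Genes around Hmox1 in haem and metal handling moved with it in part. Blvrb, a biliverdin reductase, averaged 136.8 ± 25.3 FPKM (SD, n = 4) with old and 65.4 ± 6.46 FPKM (SD, n = 3) with young donors. It was higher by 1.04 on the log2 scale (SE 0.22, adjusted p = 0.0109 in limma). The metallothionein Mt1 was higher by 0.80, and the iron exporter Slc40a1 was at 0.46 and not past the limits. Around Xdh, 3 further genes of oxidant production were higher, beside 62.5% of all genes. They were Mpo, the neutrophil myeloperoxidase (1.21), Ncf4, a subunit of the NADPH oxidase (0.70), and Rac2, the GTPase that activates this oxidase (0.70). Mpo was also higher at adjusted p-values, while Ncf4 (adjusted p = 0.0616 in limma) and Rac2 (0.0595) were not. Of 19 listed genes of oxidant production, only 4 are among the age values, where being higher was a condition of entry. Among NADPH and carbonyl enzymes, G6pdx (0.75), the aldose reductase Akr1b3 (0.72) and Aldh3a1 (0.62), listed at 0 in all 3 yHSC libraries, were higher. Of the regulators, Sesn2 (0.34) and Osgin1 (0.74) were not past the limits, and Nfe2l2, Keap1 and Bach1 are not among the age values. Exons of Selenop, G6pdx, Gstm5 and Mpo, and of Mafk in the Clu table, overlap another gene on the opposite strand, and without strand in the counting the reads of such pairs cannot be told apart.

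Same-numbered age libraries deviated from their group means together in part, at r of 0.405, 0.163 and 0.161. The differently numbered oHSC replicate 4 and yHSC replicate 3 reached 0.191. In the fit with the number as a block, which gives no weight to oHSC replicate 4, Slc40a1 (0.73) and Osgin1 (0.63) were past the limits too. Slc40a1 was also past them at 0.73 without oHSC replicate 4 and without the block, and Osgin1 was not (0.63). With the block 21 in place of 14 of the 25 genes were higher at adjusted p-values, and over all 1043 genes an adjusted p under 0.05 was reached by 689 in place of 398. Leaving out 1 library at a time gave between 14 and 21 higher genes. The count was 14 without oHSC replicate 1 and 15 without oHSC replicate 2 or yHSC replicate 3, and Txn2, Msrb2, Prdx6, Ncf4 and Rac2 lost their calls in all 3 cases. Without yHSC replicate 3 their log2 fold changes were 0.35, 0.42, 0.43, 0.37 and 0.38. After median-of-ratios scaling 3 of the 25 were higher (Xdh, Hmox1 and Gstt1) and after column-total scaling 7.

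**Figure D3:**
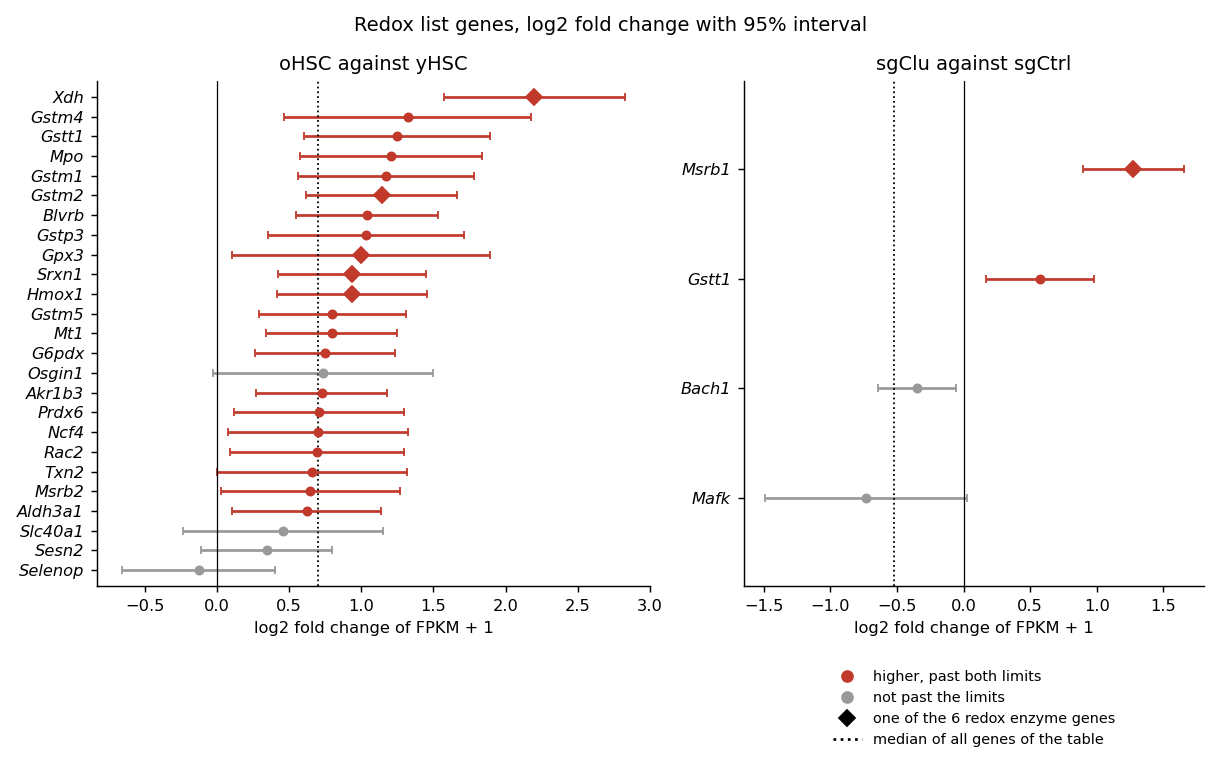
Log2 fold change of FPKM + 1 (x axis) with its 95% interval from limma for every redox list gene in the age comparison (left, 25 genes) and the Clu comparison (right, 4 genes), with diamonds for the 6 genes of the text, red for genes higher and past both limits, grey for the rest, and a dotted line at the median of all genes of the table. Xdh lies farthest right at 2.20 on the left and Msrb1 at 1.28 on the right, where the dotted line is below 0.

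Listed markers of maturing blood cells were higher in the oHSC libraries as well, a direction that was a condition of entry for the age genes. Their sums therefore cannot show a difference in cell types. By the limits 4 of 5 monocyte or macrophage and 4 of 5 neutrophil markers were higher, beside 62.5% of all genes. For erythroid markers it was 8 of 9, and for mast cell or basophil markers 8 of 8. Of 20 monocyte or macrophage markers the table holds Cd68, Csf1r, Cd14, Lyz2 and Fcgr3, whose summed level was 397.8 to 650.7 FPKM in oHSCs and 201.5 to 374.3 FPKM in yHSCs. For neutrophil genes (5 of 15, Mpo included) the sums were 7603 to 10843 and 3931 to 4845 FPKM. For erythroid genes (9 of 17) they were 1557 to 2458 and 827.0 to 1143 FPKM, and for mast cell or basophil genes (8 of 12) 497.2 to 796.0 and 233.2 to 369.5 FPKM, with Cma1, Tpsb2, Tpsab1 and Mcpt4 listed at 0 in all yHSC libraries. Of 16 lymphoid genes only Igll1 was listed (0.914 to 2.69 and 0 to 1.05 FPKM), and of 24 dissociation stress genes only Hspa1b (1.25 to 2.29 and 0.525 to 1.42 FPKM). Macrophage markers such as C1qa, Adgre1 and Cd163 are not among the age values. The part of such cells in the redox values was not tested, and in bulk RNA fewer cells of a type and less RNA per cell cannot be told apart.

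Msrb1 was the only one of the 6 genes among the Clu values, and it rose in sgClu oHSCs. Of the 583 genes, 15.4% were higher and 50.1% lower in sgClu than in sgCtrl oHSCs, 14.4% were higher at adjusted p-values, and in 14.2% every sgClu library lay above every sgCtrl library. After median-of-ratios scaling 130 genes were higher and 59 lower in place of 90 and 292, and the median change moved from -0.52 to -0.087 in log2. Msrb1, on chromosome 17 (24736642 to 24742778, plus strand), measured 40.4, 35.2, 28.5 and 43.6 FPKM in the 4 sgClu libraries and 14.6, 13.8 and 15.1 FPKM in the 3 sgCtrl libraries. The sgCtrl libraries lay close together (14.5 ± 0.653 FPKM, SD, n = 3), and all sgClu libraries (36.9 ± 6.61 FPKM, SD, n = 4), replicate 3 as the lowest, were above them. The ratio of the means was 2.55, and the log2 difference of 1.28 (SE 0.16, adjusted p = 0.00219 in limma) was the third highest of the 583. It lay between 1.19 and 1.39 when a library was left out and rose to 1.87 after median-of-ratios scaling, past the limits in each case. In its longest transcript 0% of the 50-base words occur elsewhere, and no exon of another gene overlaps its own.

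Genes most like Msrb1 over the 7 libraries, among 562, were Tmem33 (r = 0.978), Gm25360 (0.971) and Rbm38 (0.967). Of the redox list, 3 further genes were in the Clu table. Gstt1, the transferase also higher with age, measured 11.3, 14.4, 17.9 and 18.3 FPKM in sgClu and 9.75, 9.98 and 10.04 FPKM in sgCtrl oHSCs, 0.57 apart on the log2 scale (SE 0.18, adjusted p = 0.0241 in limma). It was thus higher in oHSCs than yHSCs and higher in sgClu than sgCtrl oHSCs. Without sgClu replicate 3 or 4 its change was 0.499 or 0.487 and not past the limits. Both regulators of antioxidant response elements in the table were lower in mean and not past the limits. Bach1, the repressor of Hmox1, averaged 1.06 ± 0.0896 FPKM (SD, n = 4) after knockout and 1.64 ± 0.320 FPKM (SD, n = 3) in controls. Every sgClu library lay below every sgCtrl library, as for 306 of all 583 genes. The Bach1 change of -0.35 passed with a pseudocount of 0.1 (-0.57) and was 0.0094 after median-of-ratios scaling. Mafk was at -0.73, with overlapping groups, and passed without sgClu replicate 4 (-0.92) or sgCtrl replicate 2 (-0.94).

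In the same libraries, 17 of 24 genes of dissociation stress and the immediate early response were listed. By the limits all 17 were lower in sgClu, beside 292 of all 583 genes. How many of the 17 stay lower after rescaling was not counted. Their summed level was 953.4 to 1333 FPKM in sgClu against 1742 to 2503 FPKM in sgCtrl. The part of this difference in the Msrb1 value was not tested. Of 20 monocyte or macrophage markers, C1qb, Cd14 and Ly6c2 were listed. They summed to 110.0 to 179.7 FPKM in sgClu and 245.0 to 337.3 FPKM in sgCtrl. Most of these sums was Ly6c2, since Cd14 averaged only 4.29 FPKM in sgClu and 14.1 FPKM in sgCtrl. C1qb went the other way from the sums, with a mean of 0.941 FPKM in sgClu and a listed 0 in all 3 sgCtrl libraries. Of the HSC markers, Procr and Fgd5 were listed and summed to 5.14 to 12.2 FPKM in sgClu and 13.2 to 23.2 FPKM in sgCtrl. The neutrophil genes S100a8 and S100a9 summed to 8.42 to 51.8 and 16.1 to 176.8 FPKM. The mast cell genes Tpsb2 and Mcpt4 were listed at 0 in all sgClu libraries. In sgCtrl replicates 1 to 3 they summed to 2.86, 0 and 42.5 FPKM, so the high value came from 1 library. None of the lymphoid genes was listed. The part of these cells in the Msrb1 value was not tested either. Clu itself is not among the Clu KO values, so the knockout was not checked on its target.

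**Figure D4:**
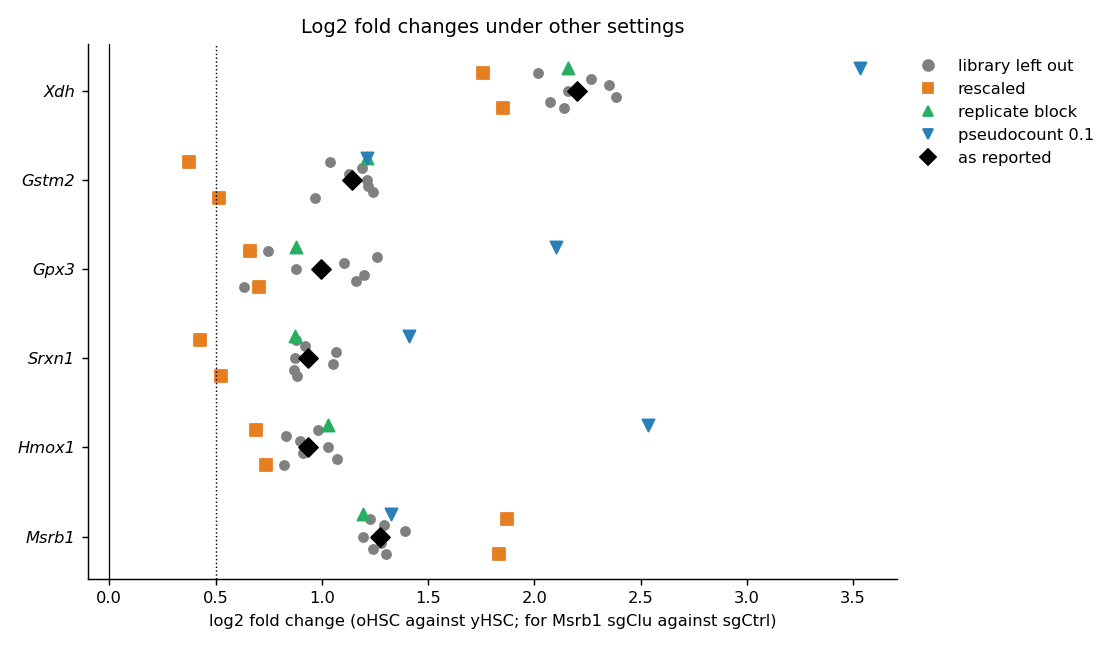
Log2 fold change (x axis) of each of the 6 genes as reported (black diamonds) and with 1 library left out (grey), after the 2 rescalings over the listed genes (orange), with the replicate number as a block (green) and with a pseudocount of 0.1 (blue), with a dotted line at the limit of 0.5. All values are above 0, Srxn1 and Gstm2 fall below 0.5 after median-of-ratios scaling, and Msrb1 rises under both rescalings.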

How the data were processed

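RNA-seq libraries were made with SMART-Seq v4 and Nextera XT. The authors trimmed reads with TrimGalore 0.6.7, aligned them to mm10 with Hisat2 2.1.0, counted them with FeatureCounts 2.0.1 and called genes with DESeq2. The deposited values were read as FPKM, the unit in the authors' text, but the headers give none and they may be TPM. The annotation and the step from counts to values are not given in the sources used here. Each comparison was tested within its own tables with limma 3.58.1 (R 4.3.3) on log2(FPKM + 1), two-sided, with no filter. Named genes were the 6 members, all genes of the redox list found in the table and, for likeness, the 3 genes with the highest Pearson r. Members and lists were chosen with earlier results of these data known. Transcript words, exons and positions came from GENCODE M21, with 97.6% of age and 98.1% of Clu symbols matched. In the age libraries, deviations of same-numbered samples correlated at 0.405, 0.163 and 0.161, all above 0.1, so the number was also tried as a block. However, oHSC replicate 4, which has no partner, correlated with yHSC replicate 3 at 0.191, so whether the numbers are pairs is uncertain. The main fits and their p-values use no block. The block gives no weight to oHSC replicate 4. Alternatives were a pseudocount of 0.1, a group mean of at least 1 FPKM, a mean-variance trend, no shared variance, the replicate block, 2 rescalings, a limit of 1 on the log2 fold change, adjusted p-values and leaving out each library. The code was tested on simulated data. Depth is unknown, since no whole-read steps were found, so no counting interval is given.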

Additional observations from a re-analysis of the deposited data

How the results depend on the processing

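Xdh, Hmox1 and Msrb1 were past the limits under every alternative tried at the 0.5 limit. No member changed sign. For age, 652 higher genes became 124 with median-of-ratios scaling, 151 with column-total scaling, 389 at adjusted p-values, 197 at a log2 fold change limit of 1 and 405 to 655 with a library left out, with the lowest without yHSC replicate 3. The 10 lower genes became 54, 40 and 2 under the 2 scalings and the limit of 1, and 8 to 13 with a library left out. The 21 higher redox genes became 3, 7 and 8 under the 2 scalings and the limit of 1, and 14 to 21 with a library left out, and 1 was lower under each scaling (Selenop). Both rescalings take the listed genes as the reference, and these are selected genes.

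With median-of-ratios scaling the log2 fold changes turned to -0.11 for Prdx6, -0.16 for Txn2, -0.16 for Msrb2, -0.025 for G6pdx, -0.019 for Gstm5, -0.027 for Mt1, -0.091 for Akr1b3, -0.098 for Ncf4 and -0.12 for Rac2, and for Bach1 in the Clu comparison to 0.0094. With column-total scaling Txn2 turned to -0.0082 and Msrb2 to -0.0051. Selenop ran from -0.22 to 0.013 with a library left out, the highest without yHSC replicate 2. Beyond the rescalings themselves, the cause was not tested.

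For Clu, 292 lower genes became 59 and 70 under the 2 scalings, 69 at the limit of 1 and 241 to 295 with a library left out, and 90 higher genes became 7 at the limit of 1 and 69 to 98. Redox genes called higher numbered 1 at the limit of 1 and 1 to 2 with a library left out. Redox genes called lower numbered 1 with a pseudocount of 0.1 (Bach1), 1 with the filter on group means (Mafk) and 0 to 1 with a library left out.

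The replicate block gave 752 higher and 12 lower genes for age and changed no member's call. Same-numbered Clu libraries correlated at -0.103, 0.0731 and 0.0578, which cannot settle whether the numbers are pairs. There the replicate block gave 65 higher and 270 lower genes, with 1 redox gene higher (Msrb1) and 1 lower (Mafk).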
